A study of Arabidopsis thaliana with 22 samples.

Results

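The peaks described here were called in chromatin that carried no epitope tag. An antibody against hemagglutinin (HA) was the immunoprecipitating antibody of the protocol, and 4 immunoprecipitates came from Arabidopsis thaliana plants without any HA transgene. These 4 libraries were chosen by their labels and are 4 of the 22 ChIP-seq samples of the series, of which 11 are immunoprecipitates with a peak list and 11 are inputs. Their lists hold 2093 peaks of 70394 in the 11 lists, with 1962 on chromosomes 1 to 5 and 131 on the organelle genomes. The question of the comparison was which regions give a peak when the tagged protein is absent, and whether the 2 control sets give the same regions.

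All 4 libraries were wild type (WT), ecotype Col-0, with no transgene, and the tissue was the inflorescence; plant age was not given. Set A holds replicates 1 and 2 made beside the NRPD1-HA libraries, and set B holds replicates 1 and 2 whose titles carry the letter B, made beside the ZMP-HA libraries. The lists are called A1, A2, B1 and B2. The set A labels give no antibody, whereas the set B labels name the anti-HA antibody, although the titles call all 4 immunoprecipitates. The 6 tagged lists used for comparison are 2 each of pNRPD1::NRPD1-HA in WT, pNRPD1::NRPD1-HA in the zmp-2 mutant, and a ZMP-HA line in Col-0. Each transgene is driven by its own promoter. A single WT library with an antibody against H3K4me3 was also used. The design text calls the 2 samples per genotype biological replicates.

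In a ChIP experiment without the epitope, DNA can still be retained by beads, by the antibody itself or by open or abundant chromatin, and the resulting peaks are the background that a tagged library also carries. Arabidopsis centromeres are built of long arrays of a short satellite repeat, flanked by transposon-rich pericentromeric heterochromatin, and the ribosomal RNA genes (rDNA) lie in tandem arrays of many near-identical copies. A reference genome holds only part of such arrays, so reads from many copies pile up on few reference bases in the immunoprecipitate and in the input alike. Leaf and flower tissue also contains many chloroplast and mitochondrial genomes per cell.

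The sequences at the sites on which the results turn are shown first, from the RefSeq copy of the TAIR10 assembly, plus strand. The first 2 are windows at the summits of strong genic peaks found without a tag: upstream of ANR1 (chr2:6018304-6018557) and in the coding sequence of AT2G31590 (chr2:13446945-13447244). The next 4 are the 30 bases richest in the same motif at AT3G10040, named HRA1 (chr3:3098233-3098262), AP1 (chr1:25986303-25986332), AT2G26730 (chr2:11388496-11388525) and AT5G15120, named PCO1 (chr5:4898643-4898672). Capitals in these 6 mark the letters AAACCA or, on the other strand, TGGTTT.
ANR1: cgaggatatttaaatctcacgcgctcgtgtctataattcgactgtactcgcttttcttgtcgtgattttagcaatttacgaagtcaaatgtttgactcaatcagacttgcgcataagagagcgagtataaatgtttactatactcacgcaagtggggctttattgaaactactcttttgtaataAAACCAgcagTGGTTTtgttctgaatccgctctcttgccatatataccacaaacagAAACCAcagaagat
AT2G31590: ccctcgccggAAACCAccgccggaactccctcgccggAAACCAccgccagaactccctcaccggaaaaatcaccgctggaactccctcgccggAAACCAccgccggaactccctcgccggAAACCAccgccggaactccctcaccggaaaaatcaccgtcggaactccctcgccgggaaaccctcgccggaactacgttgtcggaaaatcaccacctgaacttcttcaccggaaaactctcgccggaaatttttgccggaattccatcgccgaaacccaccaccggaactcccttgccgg
HRA1: tAAACCAaggggcTGGTTTtggcaAAACCA
AP1: gTGGTTTtagggaaaagctaaagcTGGTTT
AT2G26730: tgtcggaAAACCActtcTGGTTTtcagcaa
PCO1: aagaatggccccTGGTTTtgtaatcgataa

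A further 3 sequences stand for classes of region. One unit length of the centromeric repeat was taken at the summit of chr3:13588899-13592448 (chr3:13591911-13592088), the satellite region with the deepest background. The other 2 are from regions found in A1 only: 60 bases around a run of G, in capitals, at chr4:14336305-14336364, and 100 bases at the strongest A1-only peak, in AT4G11430 (chr4:6953855-6953954), with CCACC in capitals.
Centromeric repeat: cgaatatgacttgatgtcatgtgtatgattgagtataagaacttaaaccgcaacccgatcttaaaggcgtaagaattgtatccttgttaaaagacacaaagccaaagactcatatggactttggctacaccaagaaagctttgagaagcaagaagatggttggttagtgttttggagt
A1 run of G: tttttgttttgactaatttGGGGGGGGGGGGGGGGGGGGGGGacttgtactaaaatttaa
A1-only peak in AT4G11430: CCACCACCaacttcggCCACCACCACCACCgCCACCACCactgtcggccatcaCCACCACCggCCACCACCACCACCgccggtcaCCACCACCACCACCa

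Set A gave more nuclear peaks than set B, but the 2 set A lists differed from each other by more than the sets did. A1 held 440 nuclear peaks and A2 952, against 271 in B1 and 299 in B2. The mean was 696 ± 362 (SD, n = 2) in set A and 285 ± 19.8 in set B (SD, n = 2). Every set A list was above every set B list, and the difference of 411 peaks had an exact two-sided permutation p of 0.3333, which is the smallest p that 2 against 2 lists allow. The peaks covered 330.3 kb in A1 and 684.6 kb in A2, against 187.9 kb in B1 and 273.3 kb in B2.

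The peaks were weak in every list. Fold enrichment is the caller's ratio of immunoprecipitate pileup to local background at the summit. Its median was 2.59 in A1 and 2.18 in A2, against 1.98 in B1 and 2.02 in B2. A1 stood apart in its strong peaks, since 168 of its 440 nuclear peaks (38.2%) reached a fold enrichment of 3, whereas 27 (2.84%) did so in A2, 9 (3.32%) in B1 and 12 (4.01%) in B2. The exact two-sided permutation p for this share between the sets was 1. The highest fold enrichment of any nuclear peak was 21.1 in A1 and 11.3 in A2, against 8.88 in B1 and 10.3 in B2.

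Position also separated the sets. Pericentromeric regions were defined here as the windows around the lowest gene density of each chromosome, with under 50% of the median gene density. On chromosome 2 the window starts at 3800001 and leaves out the centromeric satellite regions described below. It also leaves out the insertion of mitochondrial DNA near that centromere, likewise described below. A1 had 54 regions in the insertion and A2 had 1, against 0 in B1 and 0 in B2, which lowers the pericentromeric share of A1 most. Pericentromeric windows held 40% of the nuclear peaks in A1 and 61.6% in A2, against 74.5% in B1 and 80.9% in B2. The exact two-sided permutation p was 0.3333. Protein-coding genes were touched by 36.6% of the peaks in A1 and 19.5% in A2, against 14.4% in B1 and 11.04% in B2 (exact two-sided permutation p = 0.3333). The sets did not overlap for either share, and 2 against 2 lists cannot reach a smaller p. Overlap with the H3K4me3 list, a mark of active gene starts, was 12.1% in A1 and 7.98% in A2, against 11.1% in B1 and 11.04% in B2, so that the sets did overlap.

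**Figure D1:**
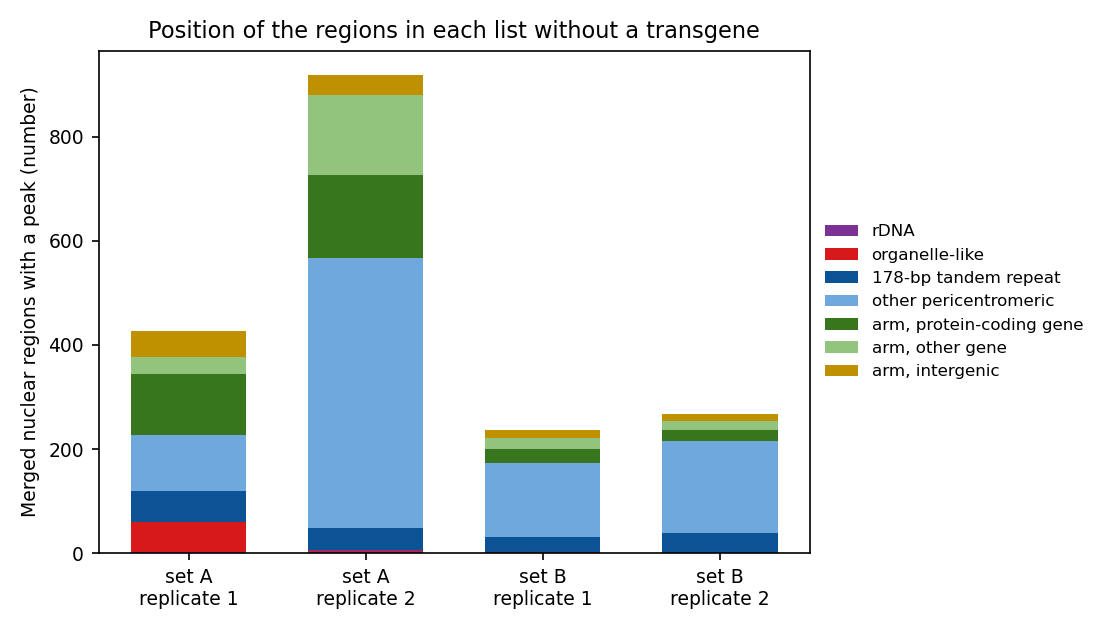
Number of merged nuclear regions with a peak in each of the 4 lists without a transgene, stacked by position class. A2 has the most regions, most of them pericentromeric, and organelle-like regions are visible in A1.

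Recurrence was limited. Peaks of the 4 lists that shared at least 1 base were merged into 1382 nuclear regions. Of these, 267 (19.3%) had a peak in at least 2 lists, 96 in exactly 3 lists, and 52 (3.76%) in all 4. A peak in both sets was present at 212 of the 267 recurring regions. Only 25 regions (1.81%) were found in both set A lists and neither set B list, and 30 (2.17%) were found in both set B lists and neither set A list.

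Sharing with set B differed between the set A lists in number but little in share, A2 being the longer list with 952 nuclear peaks beside 440 in A1. Of the A1 peaks, 15.5% overlapped B1 and 21.1% overlapped B2, and of the A2 peaks, 16.3% overlapped B1 and 22.2% overlapped B2. Regions with a peak in A2 and in at least 1 set B list but not in A1 numbered 126, against 9 with a peak in A1 and set B but not in A2. The most frequent combination of 3 lists was A2, B1 and B2 (70 regions), followed by A1, A2 and B2 (23 regions). Of the B1 peaks, 28.4% overlapped A1 and 64.6% overlapped A2, and 68.6% overlapped B2. Of the B2 peaks, 34.4% overlapped A1 and 71.6% overlapped A2, and 56.5% overlapped B1. Within set A, 26.1% of the A1 peaks overlapped A2 and 13.2% of the A2 peaks overlapped A1. Without A2, the number of recurring regions in both sets was 88.

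**Figure D2:**
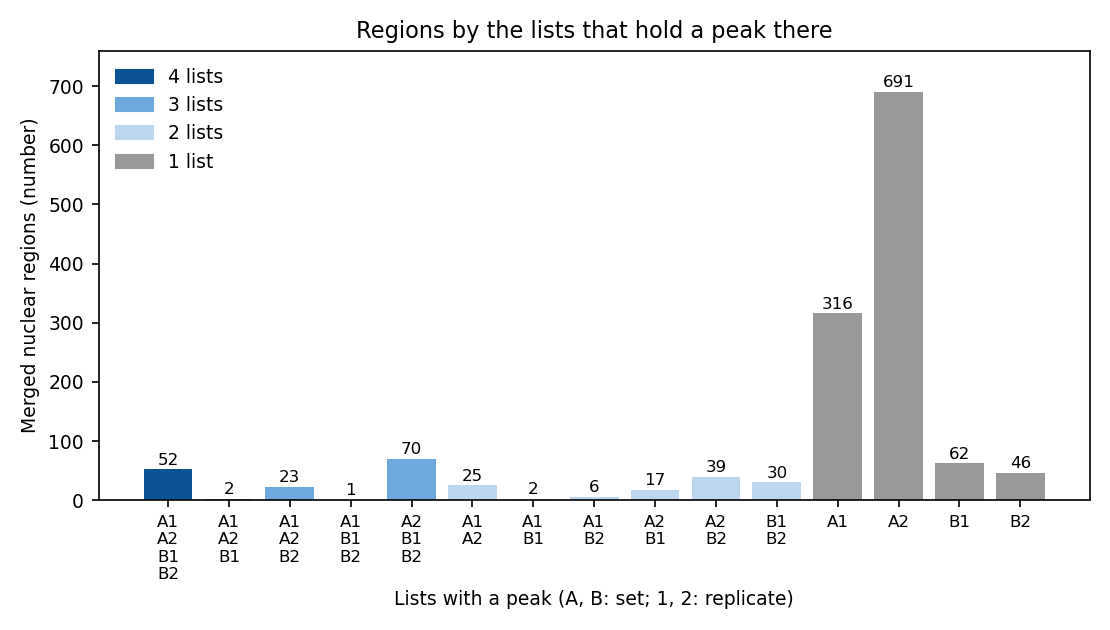
Number of merged nuclear regions for each combination of the 4 lists with a peak there. The 52 regions of all 4 lists are at the left and the regions of a single list, 316 for A1 and 691 for A2, at the right.

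Recurring regions lay mainly beside the centromeres and outside genes. Of the 267, 208 (77.9%, exact binomial 95% interval 72.4 to 82.7%) were pericentromeric, against 46.9% of the 1115 regions found in 1 list, while these windows hold 14.4% of nuclear bases. Only 28 (10.5%, interval 7.08 to 14.8%) touched a protein-coding gene, against 29.2% of the regions in 1 list, and such genes span 54.1% of nuclear bases. No annotated gene or pseudogene was touched by 64.0% of recurring regions, against 28.3% of the regions in 1 list. The H3K4me3 list overlapped 35 recurring regions (13.1%), against 8.61% of the regions in 1 list. Its peaks span 6.74% of nuclear bases, a share of bases that is not directly comparable with a share of regions touched. The intervals cover counting error over regions only, and neighbouring regions are not independent.

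Repeated sequence was the other shared feature. The median 31-base word occurred more than once in the genome in 86.9% of recurring regions, against 46.6% of the regions in 1 list. Tandem repetition, in which at least 0.5 of bases matched the base 1 unit away, was present in 47.2% of recurring regions and in 75% of the regions of all 4 lists, against 9.69% of the regions in 1 list. A gap in the assembly lay within 5 kb of 21.4% of recurring regions, against 2.96% of the regions in 1 list. By class, the 267 comprised 42 regions of the centromeric satellite, 168 other pericentromeric regions, 2 rDNA regions, 1 region similar to organelle DNA, and 54 regions on the chromosome arms. The arm regions were 19 on protein-coding genes, 21 on other genes or pseudogenes, and 14 between genes. Arm here means outside the pericentromeric windows. On chromosome 2 it includes regions of a 97-base repeat between 3634152 and 3701379, near the satellite of that chromosome.

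The centromeric satellite, whose unit is printed above, was the class most often present in all 4 lists, with 25 of its 42 recurring regions. The peaks were shallow, and most of them stood on very deep background. Of the 42 regions, 41 had a peak in A1 and 39 in A2, against 27 in B1 and 38 in B2. Median fold enrichment at them was 2.53 in A1 and 1.72 in A2, against 1.46 in B1 and 1.70 in B2. The local background that the caller had assigned was a median of 61.6 times the list's usual value in A1 and 51.3 times in A2, against 60.1 times in B1 and 40.8 times in B2. At its lowest it was 1.22 times the usual value in A1 and 1.13 times in A2, against 1.42 times in B1 and 1.13 times in B2. At its highest it was 1440 times the usual value in A1 and 1189 times in A2, against 1362 times in B1 and 1131 times in B2. The A1 value was at chr2:3625623-3626349, which had no peak in B1.

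The example on chromosome 3 shows the scale. At chr3:13588899-13592448 the pileup at the summit was 79132 fragments in A1 and 34683 in A2, against 48929 in B1 and 52638 in B2. Fold enrichment there was 2.56 in A1 and 1.45 in A2, against 1.32 in B1 and 1.52 in B2, so that only A1 stood clear of the others. A1 was higher than A2 at 32 of the 39 satellite regions with a peak in both, higher than B1 at 24 of 26, and higher than B2 at 33 of 37. Among the 25 satellite regions of all 4 lists, A1 was the highest list at 20. B1 was the lowest list in most pairs, since A2 exceeded it at 25 of 26 regions and B2 at 23 of 26.

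Satellite regions were found on all 5 chromosomes but not evenly. Chromosome 4 held 20, between 2920617 and 4011523, and chromosome 5 held 15, between 11701706 and 12065281. Chromosome 2 held 4, between 3605722 and 3627576, outside the window of low gene density, chromosome 3 held 2, and chromosome 1 held 1. Of the 12 regions of all 4 lists with the best worst rank by fold enrichment, 5 were satellite, all on chromosome 4. Fold enrichment at chr4:2927089-2936570 was 2.91 in A1 and 2.72 in A2, against 2.12 in B1 and 1.91 in B2. At chr4:2922579-2925102 it was 2.47 in A1 and 2.48 in A2, against 2.14 in B1 and 2.35 in B2. Both set A lists were above both set B lists at these 2 regions. The sets overlapped at chr4:2947195-2950031 (2.49 in A1 and 2.67 in A2, against 2.46 in B1 and 2.88 in B2) and at chr4:2939719-2946140 (2.36 in A1 and 2.44 in A2, against 2.62 in B1 and 2.45 in B2). At chr4:4008564-4011523, where the values were 2.32 in A1 and 2.34 in A2, against 1.85 in B1 and 2.13 in B2, the sets did not overlap. Background there was 45.4 to 66.4 times the usual over the lists. At the regions named here between 2922579 and 2950031 it was only 1.13 to 2.86 times, so not every satellite region had deep background.

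**Figure D3:**
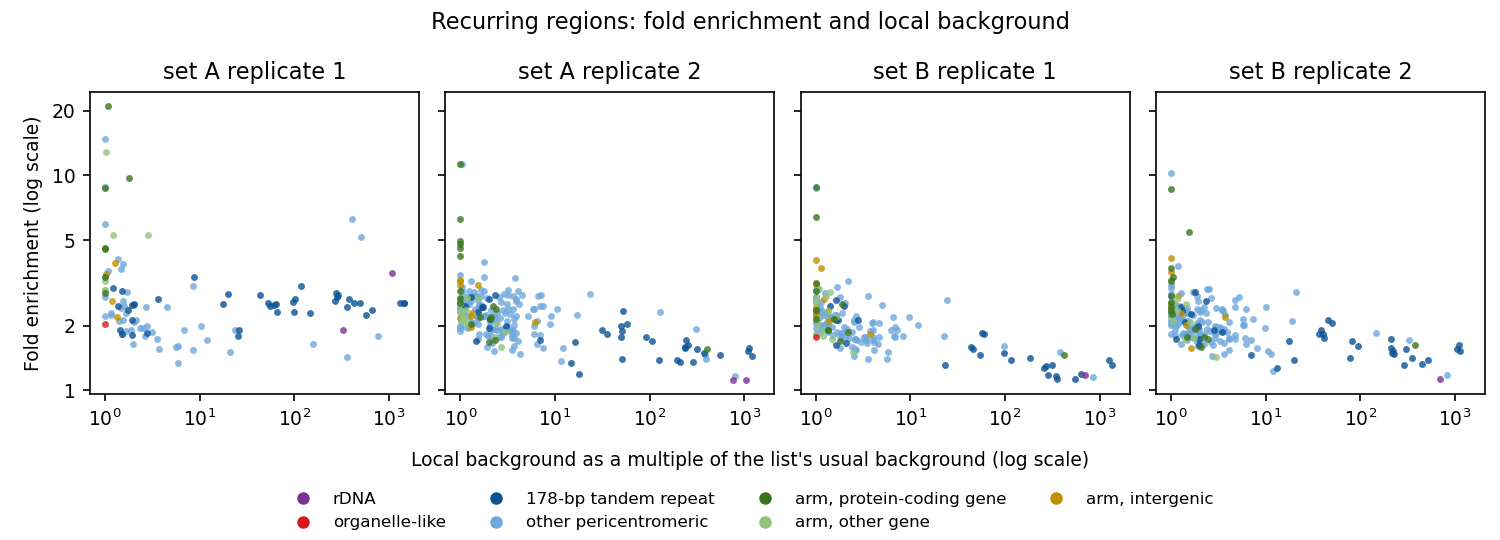
Fold enrichment of recurring regions (log scale) against the local background as a multiple of the list's usual background (log scale), 1 panel for each list and 1 point for each region with a peak, coloured by position class. Satellite points reach 1440 times the usual background in A1, and the median arm point of each class and list lies between 1 and 1.36 times. The exception among the arm points is chr2:8465-10178, at 407 times in A2, 419 times in B1 and 378 times in B2.

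The other pericentromeric class followed another order. Of its 168 recurring regions, 50 had a peak in A1 and 145 in A2, against 106 in B1 and 142 in B2, and the median fold enrichment was 2.11 in A1 and 2.23 in A2, against 1.98 in B1 and 2.08 in B2. At the 21 regions of this class in all 4 lists, A1 was highest at 2 and A2 at 10, against 2 for B1 and 7 for B2. Background was less deep than at the satellite, with a median of 2.09 times the usual in A1 and 2.34 times in A2, against 2.00 times in B1 and 1.91 times in B2. These regions were also shorter, with a median width of 914 bases beside 1738 bases for satellite regions.

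A tandem repeat with a unit near 500 bases gave much of that class, and here A1 had few peaks. On chromosome 3, 38 recurring regions between 13682031 and 14216470 had a unit of 485 to 510 bases. All 38 had a peak in A2, against 24 in B1 and all 38 in B2, whereas 8 had a peak in A1. Median fold enrichment was 2.06. The unit on chromosome 4 (498 bases, chr4:3054396-3061415) matched all 38 of them, with a median identity of 83.6%, and both regions on chromosome 5 with a median identity of 93.3%. That chromosome 4 region had a peak in all 4 lists, at 1.65 in A1 and 2.31 in A2, against 1.61 in B1 and 1.85 in B2, over a background 157, 129, 98.2 and 148 times the usual in A1, A2, B1 and B2. Genes for the 5S ribosomal RNA, the smallest RNA of the large ribosomal subunit, are known to lie in tandem arrays of about this size near these centromeres, but the annotation used here names no nuclear 5S gene, and whether these units hold it was not tested.

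Other groups of repeats varied in which lists held them. On chromosome 5, 14 recurring regions outside the satellite class, with a unit of about the satellite's length or a multiple of it (11823125 to 13455964), had a peak at 12 in A1 and 12 in A2, against 1 in B1 and 9 in B2. On chromosome 5, 6 recurring regions of another unit (12847751 to 12887337) had a peak in A2, B1 and B2 each, and 3 of them had a peak in A1. On chromosome 1, 8 regions (14609266 to 15029445) with a unit of 158 bases or a multiple of about that length had a peak in A1 at 1 and in A2 at 5, against 6 in B1 and 7 in B2. A 97-base unit on chromosome 2 gave 4 recurring regions over 67.2 kb (3634152 to 3701379), none with a peak in A1. The chromosome 5 region chr5:13453499-13455964, 1 of those 14, with a 355-base unit, was among the 12 best ranked of all 4 lists, at 2.22 in A1 and 3.02 in A2, against 2.99 in B1 and 2.47 in B2.

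Peaks in the rDNA class, defined by the annotated rRNA genes and 1 kb around them, were few and, outside A1, weak. Of the 4 annotated nuclear rRNA genes, AT2G01010 and AT3G41768 each had a peak in A2 alone, at a fold enrichment of 1.09 and 1.22. The 2 recurring rDNA regions began within 1 kb of annotated rRNA genes. They lay on genes annotated as other RNA types, AT3G06365 on chromosome 3 and, among others, AT2G03865 and AT2G03875 on chromosome 2. Because the class rests on 4 annotated genes, its count is no measure of the whole rDNA array. At chr3:14200239-14203784, fold enrichment was 3.51 in A1 and 1.11 in A2, against 1.18 in B1 and 1.13 in B2, over a background 1082, 1034, 704 and 700 times the usual in A1, A2, B1 and B2. At chr2:6279-8153 it was 1.92 in A1 and 1.12 in A2, and neither set B list had a peak. The 3-fold enrichment on chromosome 3 was thus seen in A1 alone. Without A1, this region split into pieces and no recurring region of the rDNA class was left. Neighbouring regions over similarly deep background, given next, were counted in other classes.

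The block around the chromosome 3 rDNA held 5 regions over 11.2 kb, of which 4 recurred. Its outer regions had their highest fold enrichment in A1, with 5.16 in A1 and 1.46 in A2 at chr3:14193843-14194650 and 6.29 in A1 and 1.41 in A2 at chr3:14204281-14205064, and no peak in set B. The region chr3:14195364-14196578 had a peak in all 4 lists, at 1.80 in A1 and 1.17 in A2, against 1.15 in B1 and 1.18 in B2. At the end of chromosome 2, chr2:8465-10178 had a peak at 1.56 in A2, against 1.46 in B1 and 1.63 in B2, and none in A1. It was classed as an arm region on a protein-coding gene, over a background 407, 419 and 378 times the usual in A2, B1 and B2.

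Organelle DNA was called in 3 of the 4 lists, and most broadly in A1. A1 held 92 organelle peaks and A2 none, against 23 in B1 and 16 in B2. The mean was 46 in set A and 19.5 in set B, with a difference of 26.5 and an exact two-sided permutation p of 1. Without A1 the difference was -19.5, so the direction rested on A1.

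Chloroplast peaks were broad and weak. In A1, 15 peaks covered 93.8% of the chloroplast genome, whereas A2 had none, B1 covered 53.7% with 23 peaks and B2 covered 16.7% with 16 peaks. The highest chloroplast fold enrichment was 2.83 in A1, against 1.85 in B1 and 1.498 in B2. All 23 chloroplast peaks of B1 and all 16 of B2 overlapped peaks of A1, and all 16 of B2 overlapped B1. The strongest B1 peak had its summit in ycf1, a gene of the chloroplast protein import machinery. The strongest B2 peak had its summit at trnG, a transfer RNA gene. The strongest A1 peak had no gene at its summit.

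Among the 4 lists, mitochondrial peaks were present in A1 alone, with 77 peaks over 71.8 kb. Their fold enrichment ran between 1.29 and 4.11 with a median of 1.76, and 1 peak reached 3. The nuclear genome held the same sequence, because chromosome 2 carries a large insertion of mitochondrial DNA near its centromere. Of the 57 nuclear regions of A1 that matched organelle DNA, 54 lay in that insertion, between 3240572 and 3502002, with a median fold enrichment over the 57 of 1.94. The other lists had 2 organelle-like regions in A2, 2 in B1 and 0 in B2. All 7 annotated nuclear transfer RNA genes with a peak in A1, of 625, also lay there, and no other list had a peak on a transfer RNA gene. The 6 tagged lists had no chloroplast peak, and 4 mitochondrial peaks in all, 3 in the first NRPD1-HA list in WT and 1 in the second.

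The highest fold enrichment of each list lay at 1 of 3 sites on single-copy sequence, AT2G31590 in A1 and B1, LBD41 in A2 and ANR1 in B2. The strongest site by worst rank over the 4 lists was chr2:6018053-6018852, which reaches from the upstream region into ANR1 (AGL44, AT2G14210), a MADS-box transcription factor gene of the nitrate response of roots. Its summit lay 104 bases upstream of the gene. Fold enrichment was 14.7 in A1 and 11.3 in A2, against 8.78 in B1 and 10.3 in B2. Both set A lists were above both set B lists, and all 6 tagged lists had a peak there with fold enrichment between 2.21 and 9.599. Although its surroundings are pericentromeric by gene density, its median 31-base word occurs once in the genome.

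The next sites were on chromosome arms. At chr2:13446687-13447475, in the coding sequence of AT2G31590, which encodes a protein of unknown function, fold enrichment was 21.1 in A1 and 4.22 in A2, against 8.88 in B1 and 5.43 in B2. A1 was the highest list and A2 the lowest, so the sets overlapped. At LBD41 (AT3G02550), a LOB-domain transcription factor gene induced by low oxygen, it was 8.75 in A1 and 11.3 in A2, against 6.44 in B1 and 8.63 in B2. The sets did not overlap there, by a narrow margin between A1 and B2.

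AP1 (AT1G69120), the MADS-box gene that sets floral meristem identity, had a peak in its 5′ exon at chr1:25985854-25986638. Fold enrichment was 4.57 in A1 and 4.595 in A2, against 2.90 in B1 and 3.22 in B2, and the sets did not overlap. At HRA1 (AT3G10040, chr3:3097551-3098413), a transcription factor gene induced by low oxygen, it was 3.38 in A1 and 4.79 in A2, against 3.15 in B1 and 3.38 in B2. The fifth arm region in all 4 lists was intergenic. That region, chr2:10600109-10601378, upstream of MAPR2, was the only arm region of all 4 lists in which both set B lists exceeded both set A lists, at 2.61 in A1 and 3.09 in A2, against 3.71 in B1 and 4.11 in B2.

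In 3 lists each, AT2G26730, a leucine-rich repeat protein kinase gene, and PCO1 (AT5G15120), which encodes a plant cysteine oxidase that senses oxygen, had peaks in their 5′ exons. AT2G26730 was at 4.53 in A1 and 4.97 in A2, against 2.75 in B2, with no peak in B1. PCO1 was at 2.84 in A1 and 6.30 in A2, against 3.70 in B2, with no peak in B1. None of the 6 tagged lists had a peak at PCO1, 1 had a peak at AP1, 3 at HRA1 and 3 at AT2G26730. A peak missing from a list may lie just under the caller's threshold.

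**Figure D4:**
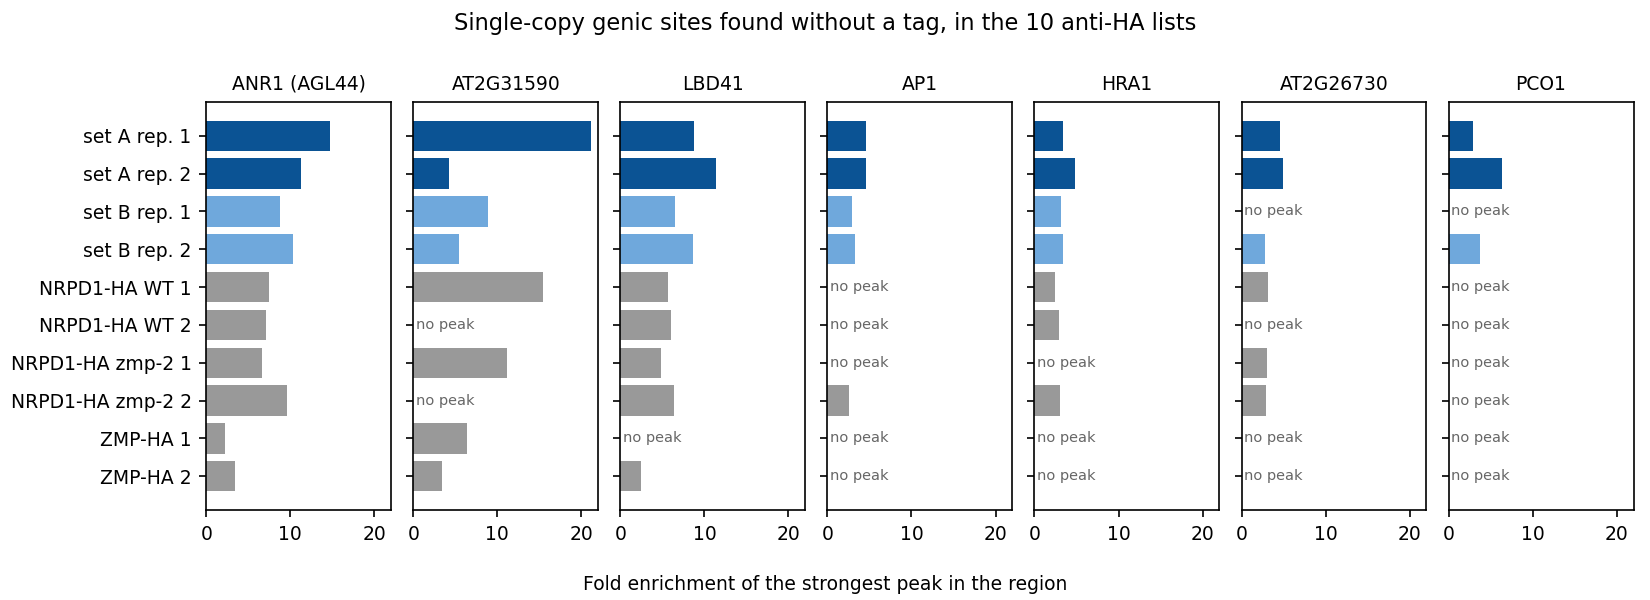
Fold enrichment of the strongest peak at 7 genic sites in the 4 lists without a transgene (blue) and the 6 tagged lists (grey). ANR1 has a peak in all 10 lists, between 2.21 and 14.7, and PCO1 has none in any tagged list.

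LBD41, HRA1 and PCO1 are known as genes of the core response to low oxygen, so 12 genes of that response were counted, a list chosen after their peaks had been seen and therefore given as a description. With a peak were 3 of the 12 in A1 and 4 in A2, against 2 in B1 and 3 in B2. Over all 27444 protein-coding genes, the share with a peak was 0.605% in A1 and 0.645% in A2, against 0.135% in B1 and 0.113% in B2. The fourth gene in A2 was AT4G10270, at a fold enrichment of 2.27. ADH1, PDC1 (AT4G33070) and SUS4, which encode enzymes of fermentation and sucrose breakdown, had no peak in any of the 4 lists.

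The letters AAACCA, searched on both strands, were frequent at several of the strong arm sites. This motif, too, was chosen after the sequences had been seen. AAACCA is part of the anaerobic response element described in a maize alcohol dehydrogenase promoter. In windows of 300 bases at the summit, HRA1 held it 7 times, AP1 and AT2G31590 held it 4 times each, and the intergenic region on chromosome 2 held it 1 time. The mean over these 4 arm windows was 4.0, and 3 of the 4 held it at least 3 times. The mean over all genome windows of the same length was 0.385, and 4136 of 397152 of them (1.04%) held it at least 3 times. Outside these 4 windows, ANR1 and AT2G26730 held it 3 times each and PCO1 held it 1 time.

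Arm regions of lower recurrence had few matches. Among the 53 recurring arm regions counted, 4 held it at least 3 times. Of these, 3 were the regions of all 4 lists given above, and the other was AT2G26730. Among the 530 arm regions of a single list, 1 did. That single region was chr3:1970512-1971028, found only in A2 at a fold enrichment of 3.41, with 4 matches, across AT3G06435, AT3G06436 and AT3G06437. In AT2G31590 the matches sit inside a coding sequence that repeats the same stretch, visible in the sequence above, so they are not independent of each other. A match is a description of letters and no measure of binding.

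Other recurring regions on the arms were weaker and often lay in repeated genes. The germin-like genes on chromosome 5, which encode cell wall proteins of the cupin family, were covered by 18 regions, of which 5 recurred over 24.8 kb (15670065 to 15694873). AT5G39180 was at 9.70 in A1 and 2.19 in A2, with no peak in set B. GER2 (AT5G39190) was at 2.48 in A2, against 2.14 in B1 and 1.77 in B2, with no peak in A1. AT5G39170 was at 1.68 in A2, against 1.86 in B1 and 1.94 in B2. Local background in the GER2 region was 2.199 times the usual in A2, 1.56 times in B1 and 2.26 times in B2.

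Pseudogenes with a peak were most numerous in A2, the list with the most nuclear peaks. Of 4843 annotated pseudogenes, 84 (1.73%) had a peak in A1 and 345 (7.12%) in A2, against 57 (1.18%) in B1 and 51 (1.05%) in B2. The share of protein-coding genes with a peak was lower in each list, at 0.605% in A1 and 0.645% in A2, against 0.135% in B1 and 0.113% in B2. The intergenic region chr3:11055134-11055707 was at 3.27 in A2, against 4.04 in B1 and 3.57 in B2. AT2G09870, a pseudogene, was at 2.14 in A2, against 2.96 in B1 and 3.28 in B2. A2 was the lowest of the 3 lists at both.

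Few genes of groups that are highly transcribed in growing tissue had a peak, and the shares over all protein-coding genes given above are so low that few would be counted in groups of these sizes in any case. None of 52 histone genes had a peak in any of the 4 lists, nor did any of 31 genes for chlorophyll-binding proteins and Rubisco or any of 70 elongation factor genes. Ribosomal protein genes had 1 of 344 with a peak in A1 (AT4G37660) and none in the other lists. Heat shock genes had 1 of 112 with a peak in A2 and none in the others.

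A1 differed from the other lists in the sequence at its peaks, taken as a share of peaks. A run of at least 10 C or 10 G occurred in the 300-base summit window of 67 of its 440 nuclear peaks (15.2%) and in 0.525% of those of A2, against 0.738% in B1 and 0.334% in B2. The same share was between 0.163 and 0.703% in the 6 tagged lists and 0.0856% over all genome windows. In number, such windows were 51 and 15 in the first and second NRPD1-HA lists in WT. They were 38 and 18 in the NRPD1-HA lists in zmp-2, and 18 and 11 in the ZMP-HA lists. Such runs were in 42 of the 100 strongest A1 peaks and in 64 of the 316 regions found in A1 only. An example is chr4:14336064-14336605, with a fold enrichment of 6.71 and the run of G shown above. At least 5 copies of CCACC, on either strand, were present in 5.23% of the A1 windows and 0.735% of the A2 windows, against 1.85% in B1 and 1.00% in B2. Median GC content was 46% in A1 and 41% in A2, against 38% in B1 and 37.3% in B2, beside 36.3% over genome windows.

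**Figure D5:**
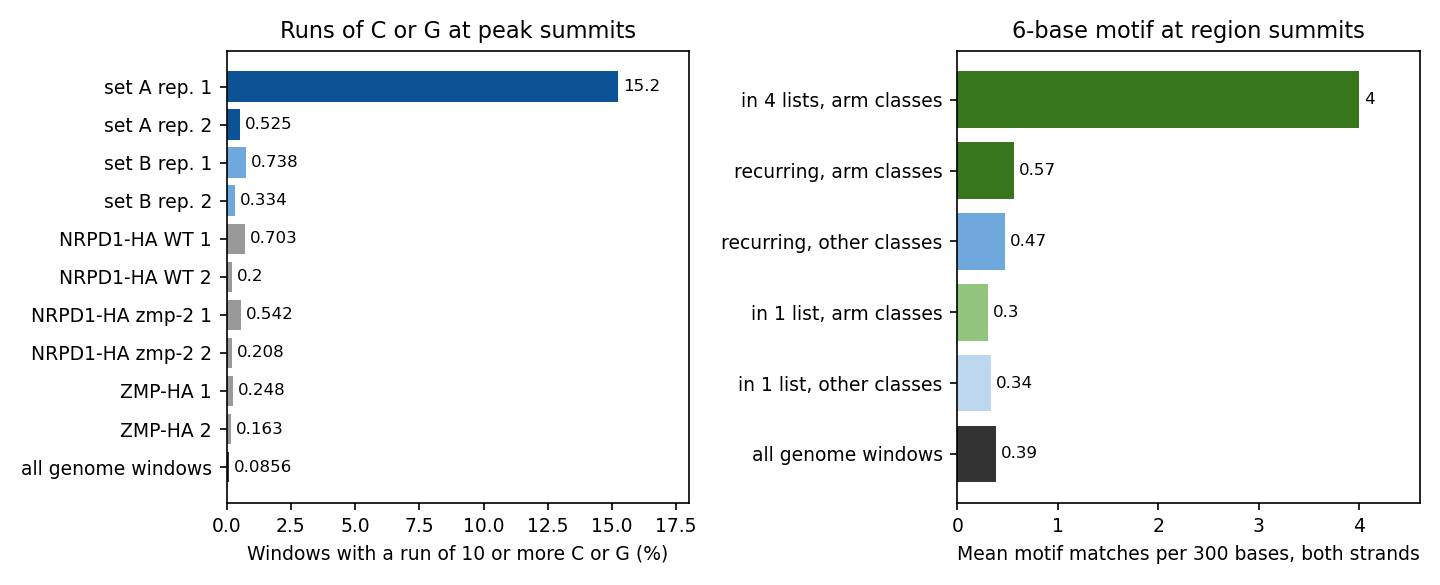
Left, the share of 300-base windows at peak summits that hold a run of at least 10 C or G, in the 10 anti-HA lists and over all genome windows. Right, the mean number of AAACCA matches per 300 bases by recurrence and class, with 4.0 at the 4 arm regions of all 4 lists that were counted and 0.39 over the genome.

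A1 was also the only one of the 4 lists with peaks on genes for small nuclear RNAs, the RNA components of the spliceosome. Of 82 annotated genes, 11 (13.4%) had a peak in A1 and none in A2, B1 or B2, beside 0.786% of all annotated nuclear genes in A1. They were 5 of 13 U1 genes, 4 of 23 U2 genes, 1 of 11 U4 genes, 1 of 14 U5 genes and 0 of 14 U6 genes. U2.3 was highest at 4.89, followed by U2.1 at 4.26 and U1.7 at 4.13. U1.9 and U4.8 lie within 1 peak, so the 11 genes were touched by fewer than 11 peaks. Peaks on small nuclear RNA genes were not confined to A1 among all lists. Each of the 6 tagged lists had a peak on 1 or 2 U6 genes, the family without a peak in A1. The gene family was chosen after the lists had been seen. The usual background of A1, 21.5 fragments per base, lay within the range of the 4 lists (20.1 to 30.6).

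The strongest regions found in A1 only lay in proline- or glycine-rich coding sequence or a pseudogene, and all had peaks in the 6 tagged lists. AT4G11430, which encodes a hydroxyproline-rich glycoprotein, was at 9.38, the transcribed pseudogene AT3G30147 at 8.75, and AT5G42635, which encodes a glycine-rich protein, at 8.31. Of the 316 A1-only regions, 112 were arm regions on protein-coding genes, 57 were pericentromeric, 56 were organelle-like and 19 were satellite. The 691 A2-only regions were of another kind, with 373 pericentromeric, 142 on arm protein-coding genes and 2 organelle-like. The strongest of them were the pseudogene AT2G12210 at 3.43, the chromosome 3 region with 4 motif matches named above, and the pseudogene AT2G12260 at 3.36.

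Set B had few strong regions of its own. The strongest in B1 only were the pseudogenes AT3G42763 at 2.94, AT5G35048 at 2.80 and AT4G06544 at 2.73, each with a peak in at least 5 tagged lists. The strongest in B2 only were 3 tandem-repeat regions, chr1:14659245-14659778 at 2.94, chr5:11873974-11874473 at 2.58 and chr1:14657913-14658634 at 2.56.

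The 5 best-ranked regions of both lists of a single set were pseudogenes or intergenic. For set A, the pseudogene AT5G28263 held 2 such regions, at 8.88 in A1 and 2.86 in A2 and at 5.95 in A1 and 2.71 in A2. AT2G06460 was at 5.31 in A1 and 2.70 in A2, the intergenic chr5:11852105-11852983 at 3.68 in A1 and 2.76 in A2, and AT2G25550 at 3.24 in A1 and 2.35 in A2. A1 was above A2 at all 5. For set B, the intergenic region chr1:14936008-14938422 was at 2.62 in B1 and 3.10 in B2, AT4G03840 at 2.88 in B1 and 2.53 in B2, and the intergenic chr4:5691612-5692014 at 2.67 in B1 and 2.53 in B2. The pseudogenes AT5G34990 (2.38 in B1 and 2.50 in B2) and AT3G37820 (2.31 in B1 and 2.53 in B2) completed the 5. B2 was above B1 at 3 of these 5.

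Most recurring regions also carried a peak in a tagged library. Of the 267, 233 (87.3%, exact binomial 95% interval 82.7 to 91.0%) overlapped at least 1 of the 6 tagged lists and 65 (24.3%) overlapped all 6, against 66.1% of the regions in 1 list with at least 1. Peaks of the tagged lists together span 15.3% of nuclear bases, a share of bases that is not directly comparable with a share of regions touched. No tagged list had a peak at 34 recurring regions, of which 14 were satellite, 16 other pericentromeric, 2 intergenic on the arms, 1 organelle-like and 1 an arm region on a protein-coding gene, PCO1. The overlap with the 2 ZMP-HA lists was 41.1 and 34.3% of A1 peaks and 68.1 and 56.8% of A2 peaks, against 77.5 and 76.0% of B1 peaks and 70.9 and 70.6% of B2 peaks. Over the 4 NRPD1-HA lists, it was between 23.2 and 36.4% of A1 peaks and between 37.5 and 44.6% of A2 peaks, against 39.9 to 52.8% of B1 peaks and 33.1 to 44.8% of B2 peaks. A1 had the lowest overlap of the 4 with every tagged list except the first NRPD1-HA list in WT, where B2 was lowest. Seen from the tagged lists, these are small shares. Among the 7250 peaks of the first NRPD1-HA list in WT, 2.11% overlapped A1 and 4.99% A2, against 1.42% for B1 and 1.38% for B2.

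Satellite regions were matched in part of the tagged lists. None of the 42 recurring satellite regions had a peak in all 6 tagged lists, 28 had at least 1, and 152 of the 168 other pericentromeric regions had at least 1, of which 38 had all 6. Peaks whose background exceeded 10 times the usual made up 12.1% of nuclear peaks in A1 and 7.04% in A2, against 14.0% in B1 and 19.1% in B2, while they were between 0.0809 and 0.528% in the 6 longer tagged lists. In number they were 53 in A1 and 67 in A2, 38 in B1 and 57 in B2, and between 7 and 37 in the tagged lists.

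The genes of the tagged proteins were examined whatever their values. ZMP (AT5G63700) had no peak in any of the 10 anti-HA lists. NRPD1 (AT1G63020), which encodes the largest subunit of RNA polymerase IV, had 2 peaks in A2, at 1.85 and 2.16, and none in A1, B1 or B2. Those peaks lay between 23356965 and 23358910, inside the gene. Peaks of the 4 NRPD1-HA lists lay at the other end of the gene, beyond 23361535.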

How the data were processed

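ChIP-seq peak lists of inflorescences were analysed, 1 deposited list per immunoprecipitate. According to the methods, the authors trimmed reads with Trim Galore 0.4.3, aligned them to TAIR10 with Bowtie2 2.2.9 and called peaks with MACS2 2.2.6, with input as control; which input served which library is not given in the sources used here. The deposited lists give a score, a fold enrichment (a linear ratio at the summit), a −log10 p-value and a −log10 q-value; no q-value exceeded 0.0494. The authors' score column was not used for any result.

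Pileup and local background were solved from the fold enrichment and p-value of each peak. They rebuilt 100% of p-values within 1%, which follows from the way they were solved and is no separate check of them. The usual background, the single value found most often among the peaks of a list (20.7 to 44.2% of them), was 21.5 (A1), 20.1 (A2), 27.3 (B1) and 30.6 (B2) fragments per base. It stands for depth, since read totals are not used here, and with more depth weaker regions can be called. Lists hold calls, so a missing peak is not an absence of signal.

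Nuclear peaks sharing 1 base were merged. Regions were classed in the order rDNA (annotated rRNA genes and 1 kb around them), organelle-like (BLAST 2.17.0 hits of at least 90% identity over 50% of the region), 178-base repeat (at least 0.6 of bases equal at a distance of 177 to 180), pericentromeric, and arm. Annotation came from RefSeq TAIR10.1, whose nuclear chromosomes match the lists; mitochondrial positions were not annotated because that sequence differs. Sets were compared by exact permutation over the 4 lists, and shares have exact binomial (Clopper-Pearson) 95% intervals. Named regions were the 12 of all 4 lists with the best worst rank by fold enrichment, the 5 best of both lists of 1 set only, the 3 strongest of each single list, all on annotated rRNA genes, and NRPD1 and ZMP; others named were picked after their values were seen. The sequence of 1 arm region is not reported here, and that region was left out of the motif counts. Members and gene lists were chosen with earlier results of these data known. Scripts were tested on simulated lists, with Python 3.11.15, numpy 2.4.6, scipy 1.17.1 and matplotlib 3.10.9. The calls were repeated at a q-value of 0.01, with 50% reciprocal overlap, with merging within 200 bases, with lists shortened to 271 peaks, with other windows and gene spans, and without each list in turn.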

Additional observations from a re-analysis of the deposited data

How the results depend on the processing

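Of 67 alternative values, 60 counted as unchanged. For a count this meant staying within 1.5 times the value, and for a share staying within its interval. For the differences between sets it meant only the same sign, since no choice of these lists could give a small p. The difference in organelle peaks reversed to -19.5 without set A replicate 1 (leave-one-out range -19.5 to 72.5). The number of recurring regions with a peak in both sets, 212 in the report, was 132 with lists of equal length, and 88 (without set A replicate 2) to 218 when 1 list was left out. The pericentromeric share was 68.9% with windows under 25% of median gene density. The rDNA share was 0 with annotated rRNA genes only, and 0 (without set A replicate 1) to 1.015% when 1 list was left out. The share of recurring regions in tagged lists was 24.3% when all 6 were required. The number of recurring regions ran between 193 and 268 over all alternatives, and the nuclear difference between 155 and 667 when 1 list was left out. Of the 267 recurring regions, 202 remained with lists of equal length and 185 without set A replicate 2.

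With the replicate number as a block, the differences were 411 nuclear peaks (exact permutation p = 0.5, the smallest possible) and 26.5 organelle peaks (exact permutation p = 1); the labels do not say that a number pairs samples across sets. After the data were seen, windows of 200 bases were added and left 2 of the 4 arm regions counted with at least 3 motif matches, and a q-value of 0.01 left all 11 small nuclear RNA genes in set A replicate 1. The lists hold no read counts, so depth limits which weak regions could be called, and 2 lists per set cannot give a p under 0.3333.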
